A study of Homo sapiens with 22 samples.

Results

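The genes described here write, maintain and remove methylation of DNA in human cells: DNMT1, DNMT3A, DNMT3B, DNMT3L, UHRF1, UHRF2, TET1, TET2, TET3 and TDG. They were chosen by name, as background for genes that were close to silent in 3 of the 6 groups of the study. Of the 10 genes, 9 had a row in the count table of 48162 gene IDs, and 8 were among the 16694 genes that passed the filter on low counts. DNMT3L had a row and failed the filter, and UHRF1 was not analysed here because no row carried the ID under which the gene name table lists it.

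RNA was sequenced from HEK293, a human line that was established from embryonic kidney cells, in 6 groups of 2 libraries each, which the series describes as biological replicates. In 5 groups the cells carried an inducible fusion of dCas9, a Cas9 that no longer cuts and that a guide RNA directs to its target in the genome. VPRP sgHBB cells carried VPR joined to p300 with a guide to HBB, the beta-globin gene, and VPRP non-target cells carried that fusion with a guide that has no target. VPR sgHBB cells carried the activation domains VP64, p65 and Rta with the HBB guide, and p300 sgHBB cells carried the p300 acetyltransferase with it. p300 D1399Y sgHBB cells carried p300 with an amino acid change in its catalytic domain that impairs acetylation, again with the HBB guide. WT cells had a guide but no fusion, and the labels do not state which guide. Dox was given over 48 hours, and the fusion groups were sorted for both GFP and BFP while WT cells were sorted for BFP alone. Comparisons with WT therefore also differ in the sort and possibly in the guide, and these cannot be told apart from the fusion. The promoter that drives the fusions, and whether the lines were clones, are not stated in the labels used here.

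Methylation of cytosine in CpG pairs is copied to the new strand after replication by DNMT1, which UHRF1 brings to hemimethylated sites. DNMT3A and DNMT3B set new methylation, and DNMT3L, which has no catalytic activity of its own, assists them, mainly in germ cells and early embryos. TET1, TET2 and TET3 oxidise methylcytosine, and TDG, a DNA glycosylase, cuts out the oxidised products so that repair can put back an unmodified cytosine. UHRF2 is a relative of UHRF1 that binds hydroxymethylcytosine.

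A promoter window is shown for each of DNMT1, DNMT3B and TET3 because these 3 genes had clear changes in opposite directions. The windows also differ widely in the CpG pairs on which the enzymes themselves act. They were picked after the values had been seen. Each run is the 250 bases before the RefSeq start that is entered first for the gene on GRCh38.p14, with CpG pairs in capitals. The order of entry does not follow position, so this start need not be the most upstream and can lie inside the gene. The DNMT1 window is chr19:10194954-10195203 on the minus strand, the DNMT3B window chr20:32779602-32779851 on the plus strand and the TET3 window chr2:73984660-73984909 on the plus strand.
DNMT1: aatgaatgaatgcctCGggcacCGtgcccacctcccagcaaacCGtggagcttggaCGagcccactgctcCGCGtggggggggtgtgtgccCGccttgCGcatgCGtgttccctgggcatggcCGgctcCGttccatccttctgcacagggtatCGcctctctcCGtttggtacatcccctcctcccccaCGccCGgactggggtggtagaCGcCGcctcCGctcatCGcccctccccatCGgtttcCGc
DNMT3B: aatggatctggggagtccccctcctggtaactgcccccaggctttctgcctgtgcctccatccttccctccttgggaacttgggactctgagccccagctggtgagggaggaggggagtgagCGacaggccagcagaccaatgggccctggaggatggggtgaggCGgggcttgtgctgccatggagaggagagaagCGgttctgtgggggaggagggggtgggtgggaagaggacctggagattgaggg
TET3: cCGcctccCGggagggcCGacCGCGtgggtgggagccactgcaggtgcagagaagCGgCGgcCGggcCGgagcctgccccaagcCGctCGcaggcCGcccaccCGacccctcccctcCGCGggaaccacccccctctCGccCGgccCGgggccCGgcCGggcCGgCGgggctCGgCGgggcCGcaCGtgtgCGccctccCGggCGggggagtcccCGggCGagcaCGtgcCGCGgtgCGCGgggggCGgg

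The DNMT3B window held 3 CpG pairs, the DNMT1 window 21 and the TET3 window 37, against a median of 11 over 35116 RefSeq promoter windows of the same length. These counts hold for the listed start alone, which need not be the main start of the gene. Another listed start of TET3 had 27 CpG pairs, and listed starts of TET2 had 10 and 34. Of the 10 genes, 9 had an entry and DNMT3L did not. Both strands were searched for 4 short motifs. GGGCGG, a site of SP1, occurred 3 times in the TET3 window and in neither of the other 2 windows shown, and 42.6% of all promoters held it. CCAAT, a site of NF-Y, occurred once in the DNMT3B window, 113 bases before the start, and in 32.0% of all promoters. TTTGGCGC and TTTCCCGC, forms of the E2F site, occurred in 1.93% of all promoters and TGACTCA, the AP-1 site, in 4.20%, and none of these was in the 3 windows shown. TTTGGCGC and GGGCGG share the letters GGCG. These matches describe the letters only.

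Total counts ran from 14894558 to 17479523 over the 12 libraries. HBB, the target of the guide, had 1732 and 1379 CPM (counts scaled to library size) in VPRP sgHBB cells and 0 counts in both the VPRP non-target and the WT libraries. EP300, which encodes p300, stood at 351 and 398 CPM in VPRP sgHBB cells, 1165 and 1179 CPM in VPRP non-target cells, 1116 and 1132 CPM in p300 sgHBB cells, and 110 and 103 CPM in WT cells; reads of a fusion and of the gene itself cannot be told apart. The 2 groups that share the VPRP fusion therefore differed in EP300 RNA as well as in guide. All 7 HEK293 markers with a row were detected in every group, at mean summed levels of 356 CPM in VPRP sgHBB, 362 CPM in VPRP non-target, 498 CPM in VPR sgHBB, 394 CPM in p300 sgHBB, 591 CPM in p300 D1399Y sgHBB and 585 CPM in WT libraries. They were lowest in the 3 groups in which DNMT3A fell against WT, and their part in the results was not tested. All 5 erythroid and all 3 blood and endothelial markers stayed under 1 CPM in each group's mean. The summed level of 4 hepatocyte and fibroblast markers was 3.43 to 3.78 CPM in VPRP sgHBB libraries and 0.20 to 0.26 CPM in WT libraries, and its part in the results was not tested. In bulk RNA, fewer cells of a kind and less RNA per cell cannot be told apart. The strand setting of the counting is not stated, so counts are uncertain for genes with an overlapping or near-identical neighbour: TET2 overlaps TET2-AS1, TET3 overlaps BOLA3, and TDG, UHRF2, DNMT3A and TET1 have pseudogenes named after them. A CPM value does not account for gene length, so levels are compared here between groups and not between genes.

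The writers and erasers of methylation did not move as a block. In VPRP sgHBB cells DNMT1, DNMT3A and TET1 fell and DNMT3B and TET3 rose against WT, so writers and erasers each had members that moved in opposite directions. Of the 8 genes tested, 5 passed an adjusted p of 0.05 in VPRP sgHBB against WT (2 higher, 3 lower), where 59.1% of all genes did (31.1% higher, 28% lower). In VPRP non-target cells against WT 6 of 8 passed (2 higher, 4 lower), where 59.7% of all genes did (31.2% higher, 28.5% lower). In VPR sgHBB cells 3 of 8 passed (1 higher, 2 lower), where 25.3% of all genes did (13.8% higher, 11.5% lower). In p300 sgHBB cells 5 of 8 passed (2 higher, 3 lower), where 46.1% of all genes did (24.5% higher, 21.6% lower). In p300 D1399Y sgHBB cells 3 of 8 passed (2 higher, 1 lower), where 30.2% of all genes did (15.7% higher, 14.5% lower). The median log2 fold change of the 8 genes against WT lay between -0.13 in VPRP non-target cells and 0.05 in p300 D1399Y sgHBB cells, and that of all genes tested between 0.00 and 0.04. The share of these genes that changed was thus of the order of the share of all genes, and the 5 comparisons use the same 2 WT libraries.

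**Figure D1:**
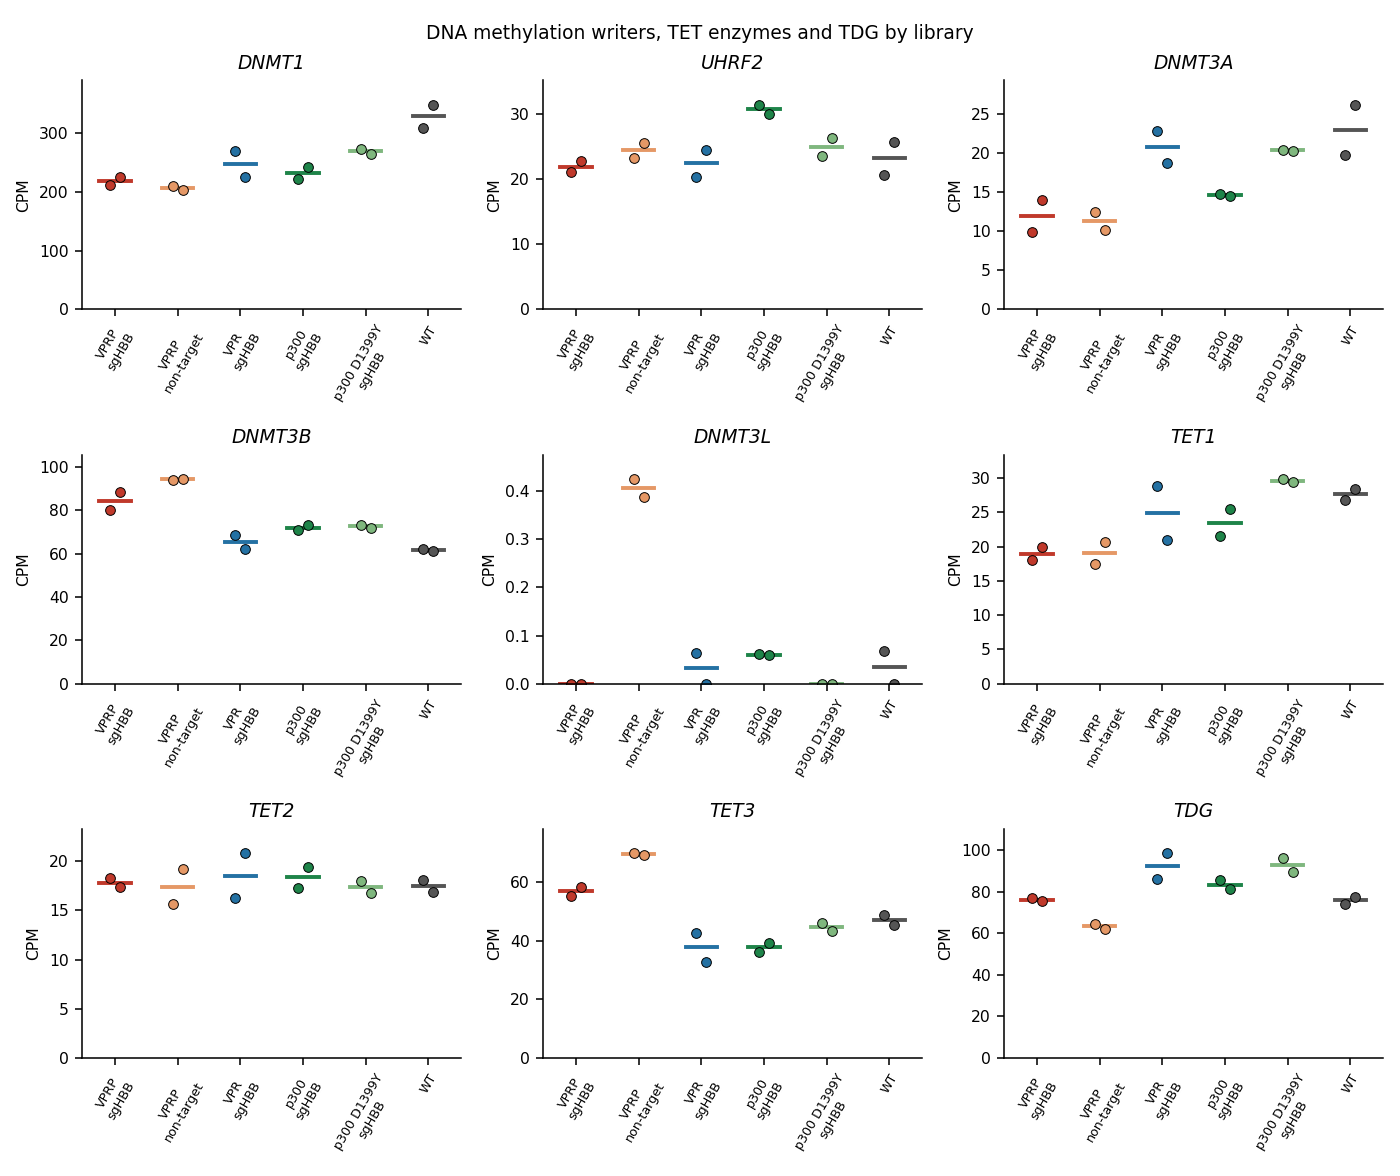
CPM of each of the 8 tested genes and of DNMT3L in the 12 libraries, by group from VPRP sgHBB at the left to WT at the right; points are libraries and short lines are group means. DNMT1 is highest in the 2 WT libraries, DNMT3B and TET3 are highest in VPRP non-target cells, and the group means of TET2 lie between 17.4 and 18.5 CPM.

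DNMT1, the maintenance methyltransferase (ENSG00000130816), fell in all 5 fusion groups. It had 211 and 226 CPM in VPRP sgHBB libraries, 210 and 204 CPM in VPRP non-target libraries and 269 and 226 CPM in VPR sgHBB libraries. It had 222 and 243 CPM in p300 sgHBB libraries, 273 and 265 CPM in p300 D1399Y sgHBB libraries, and 309 and 349 CPM in WT libraries. Both WT libraries stood above all 10 others. The log2 fold change against WT was -0.59 ± 0.08 (SE; adjusted p = 6.6e-08) in VPRP sgHBB cells and -0.67 ± 0.08 (adjusted p = 5.0e-09) in VPRP non-target cells. It was -0.41 ± 0.08 (adjusted p = 0.00016) in VPR sgHBB cells and -0.50 ± 0.08 (adjusted p = 2.3e-06) in p300 sgHBB cells. With the catalytically impaired p300 D1399Y it was -0.29 ± 0.08 (adjusted p = 0.0042), and without WT replicate 2 this last call was lost (adjusted p = 0.149).

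DNMT1 also differed between fusions. The widest difference was between VPRP non-target and p300 D1399Y sgHBB cells (log2 -0.38 ± 0.08, adjusted p = 9.4e-05). VPRP sgHBB cells had less than p300 D1399Y sgHBB cells (log2 -0.30 ± 0.08, adjusted p = 0.0019). VPRP non-target cells had less than VPR sgHBB cells (log2 -0.26 ± 0.08, adjusted p = 0.0057). The alternatives were not run for these pairs. VPRP sgHBB and VPRP non-target cells differed by a log2 of 0.08 (95% interval -0.08 to 0.24, adjusted p = 0.48), a difference that did not pass. VPRP sgHBB cells had less DNMT1 than VPR sgHBB cells by a log2 of -0.18 that also did not pass (adjusted p = 0.058). p300 sgHBB cells had less than p300 D1399Y sgHBB cells (log2 -0.21 ± 0.08, adjusted p = 0.037), and this call was lost on leaving out either p300 D1399Y library (adjusted p = 0.21 and 0.077) or p300 replicate 1 (adjusted p = 0.30), and with DESeq2 (adjusted p = 0.056).

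UHRF2, the relative of UHRF1, was highest in p300 sgHBB cells. It had 31.5 and 30.1 CPM in p300 sgHBB libraries, against 21.1 and 22.8 CPM in VPRP sgHBB, 23.3 and 25.7 CPM in VPRP non-target, 20.4 and 24.5 CPM in VPR sgHBB, 23.6 and 26.3 CPM in p300 D1399Y sgHBB, and 20.7 and 25.7 CPM in WT libraries. The p300 sgHBB libraries overlapped no other group. The log2 fold change of p300 sgHBB cells was 0.40 ± 0.12 against WT (adjusted p = 0.0046) and 0.30 ± 0.12 against p300 D1399Y sgHBB (adjusted p = 0.043). VPRP sgHBB cells, which carry p300 as part of their fusion, had less UHRF2 than p300 sgHBB cells (log2 -0.49 ± 0.12, adjusted p = 0.0017), as did VPR sgHBB cells (log2 -0.46 ± 0.12, adjusted p = 0.0024). The difference from WT was lost without WT replicate 1 (adjusted p = 0.15), the difference of VPR from p300 without VPR replicate 1 (adjusted p = 0.063), and the difference from p300 D1399Y without any 1 of its 4 libraries (adjusted p = 0.053 to 0.27) and with DESeq2 (adjusted p = 0.082). VPRP sgHBB against p300 sgHBB kept its call in every one of 12 alternatives.

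Among the de novo enzymes, DNMT3A fell and DNMT3B rose in both VPRP groups. DNMT3A had 9.85 and 13.98 CPM in VPRP sgHBB libraries, 12.4 and 10.1 CPM in VPRP non-target libraries and 14.7 and 14.5 CPM in p300 sgHBB libraries. It had 22.7 and 18.7 CPM in VPR sgHBB libraries, 20.3 and 20.3 CPM in p300 D1399Y sgHBB libraries, and 19.8 and 26.1 CPM in WT libraries. The 6 libraries with an active p300 domain, alone or joined to VPR, were thus all below the 6 without. The same 6 libraries also had more EP300 RNA, at 351 CPM or more against 195 CPM or less. Activity and amount of p300 therefore cannot be told apart here. The share of all genes that separate in this way was not counted. The fold change against WT was 1.91-fold lower in VPRP sgHBB cells (log2 -0.94 ± 0.15, adjusted p = 2.6e-06) and 2.04-fold lower in VPRP non-target cells (log2 -1.03 ± 0.15, adjusted p = 5.5e-07). It was 1.57-fold lower in p300 sgHBB cells (log2 -0.65 ± 0.15, adjusted p = 0.00047), where the call narrowly missed without WT replicate 2 (adjusted p = 0.051, log2 -0.44).

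In VPR sgHBB and p300 D1399Y sgHBB cells DNMT3A overlapped WT, with log2 fold changes of -0.15 (95% interval -0.44 to 0.15) and -0.18 (95% interval -0.47 to 0.12). Tested directly, DNMT3A was lower in VPRP sgHBB than in VPR sgHBB cells (log2 -0.79 ± 0.15, adjusted p = 5.7e-05), a call kept in every one of 12 alternatives. It was lower in p300 sgHBB than in p300 D1399Y sgHBB cells (log2 -0.47 ± 0.15, adjusted p = 0.015) and higher in VPR sgHBB than in p300 sgHBB cells (log2 0.51 ± 0.15, adjusted p = 0.0081). The comparison of p300 with D1399Y lost its call without p300 replicate 1, without p300 replicate 2 and without D1399Y replicate 1 (adjusted p = 0.066, 0.070 and 0.068), and that of VPR with p300 without VPR replicate 1 (adjusted p = 0.12). VPRP sgHBB and VPRP non-target cells differed in DNMT3A by a log2 of 0.09 (95% interval -0.24 to 0.42).

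DNMT3B had 80.0 and 88.5 CPM in VPRP sgHBB libraries and 94.3 and 94.5 CPM in VPRP non-target libraries, against 62.0 and 61.3 CPM in WT libraries. It rose 1.37-fold in VPRP sgHBB cells (log2 0.45 ± 0.08, adjusted p = 9.2e-06) and 1.53-fold in VPRP non-target cells (log2 0.61 ± 0.08, adjusted p = 3.5e-08). The p300 sgHBB libraries had 70.7 and 73.1 CPM and the p300 D1399Y sgHBB libraries 73.4 and 71.9 CPM, all above WT and below both VPRP groups. Their log2 fold changes against WT were 0.22 ± 0.08 and 0.24 ± 0.08, each with an adjusted p of 0.022, and both calls were lost on leaving out either library of the fusion or of WT (adjusted p = 0.057 to 0.20), and with DESeq2 (adjusted p = 0.050 and 0.051). VPR sgHBB cells, with 68.8 and 62.4 CPM, had a log2 fold change of 0.09 (95% interval -0.07 to 0.25). Between fusions, DNMT3B was higher in VPRP sgHBB than in VPR sgHBB cells (log2 0.36 ± 0.08, adjusted p = 0.00026), which held in every one of 12 alternatives. It was higher than in p300 sgHBB cells by a log2 of 0.23 ± 0.08 (adjusted p = 0.025), a call lost without VPRP replicate 2 (adjusted p = 0.27) or either p300 library (adjusted p = 0.16 and 0.080). p300 sgHBB and p300 D1399Y sgHBB cells differed by a log2 of -0.02 (95% interval -0.18 to 0.15).

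DNMT3L, the cofactor of the de novo enzymes, was at the edge of detection. It had 7 and 7 counts in the VPRP non-target libraries and 0 counts in both VPRP sgHBB and both p300 D1399Y sgHBB libraries. In sum it had 1 count in VPR sgHBB, 2 in p300 sgHBB and 1 in WT cells. The ratio of VPRP non-target to WT, scaled for library size, was 12.3 (exact 95% interval 1.87 to 520), and that to p300 sgHBB was 6.76 (1.55 to 61.3). Against the 0 counts of VPRP sgHBB cells the exact 95% interval of the ratio began at 3.21. Setting the observed level over 3 counts, taken as the limit that 0 allows, gave 4.52-fold. That value leaves out the counting error of the VPRP non-target level. In the edgeR fit without a filter, VPRP sgHBB against VPRP non-target had an adjusted p of 0.094 and VPRP non-target against WT an adjusted p of 0.20, so neither passed. These intervals and limits cover counting error only.

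The 3 TET dioxygenases behaved differently from each other. TET1 had 18.0 and 19.9 CPM in VPRP sgHBB libraries and 17.4 and 20.7 CPM in VPRP non-target libraries, against 26.9 and 28.4 CPM in WT libraries. Both VPRP groups lay below WT without overlap, with log2 fold changes of -0.54 ± 0.13 (adjusted p = 0.00046) and -0.53 ± 0.13 (adjusted p = 0.00051), calls kept in every one of 12 alternatives each. TET1 stood at 21.6 and 25.4 CPM in p300 sgHBB libraries and at 29.9 and 29.5 CPM in p300 D1399Y sgHBB libraries, a log2 difference of -0.33 ± 0.12 (adjusted p = 0.039). That call was lost without p300 replicate 1 (adjusted p = 0.32), without D1399Y replicate 1 (adjusted p = 0.16), without D1399Y replicate 2 (adjusted p = 0.092) and with DESeq2 (adjusted p = 0.086).

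The VPR sgHBB libraries were far apart for TET1, at 28.8 and 21.0 CPM. VPRP sgHBB was lower than VPR sgHBB by a log2 of -0.40 ± 0.13 (adjusted p = 0.011), but without VPR replicate 1 the log2 difference was -0.15 (adjusted p = 0.43) and without VPRP replicate 1 the adjusted p was 0.083. With total counts alone it was 0.062. Against WT, VPR sgHBB did not pass with both libraries (log2 -0.15, adjusted p = 0.43) and passed without VPR replicate 1 (log2 -0.40, adjusted p = 0.032). The TET1 comparisons with VPR sgHBB cells thus depended on which of its 2 libraries was kept, and which is the more typical cannot be told.

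TET2 passed in none of the 11 comparisons. Its 12 libraries ran from 15.6 to 20.8 CPM, and the lowest and highest group means, 17.4 CPM in VPRP non-target and 18.5 CPM in VPR sgHBB cells, differed 1.06-fold. The log2 fold change of VPRP sgHBB against WT was 0.03, with a 95% interval of -0.24 to 0.30. Only 3 genes of the 16694 tested had a range of group means no wider than that of TET2, while the median gene had a 1.75-fold range. The spread within the VPR sgHBB group, at 16.3 and 20.8 CPM, was wider than the spread between the group means.

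TET3 rose in both VPRP groups and fell with VPR or p300 alone. It had 55.3 and 58.3 CPM in VPRP sgHBB libraries and 69.7 and 69.1 CPM in VPRP non-target libraries. It had 42.7 and 32.8 CPM in VPR sgHBB libraries, 36.1 and 39.3 CPM in p300 sgHBB libraries and 45.9 and 43.3 CPM in p300 D1399Y sgHBB libraries, against 48.7 and 45.2 CPM in WT libraries. Both VPRP groups lay above WT, the VPR sgHBB and p300 sgHBB groups lay below it, and p300 D1399Y sgHBB overlapped it. TET3 rose 1.48-fold in VPRP non-target cells (log2 0.57 ± 0.09, adjusted p = 4.1e-06) and 1.21-fold in VPRP sgHBB cells (log2 0.28 ± 0.10, adjusted p = 0.013). It fell in VPR sgHBB cells (log2 -0.31 ± 0.10, adjusted p = 0.019) and in p300 sgHBB cells (log2 -0.32 ± 0.10, adjusted p = 0.0085).

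The 3 smaller TET3 changes against WT depended on single libraries. The rise in VPRP sgHBB cells did not pass without VPRP replicate 2 or WT replicate 2 (adjusted p = 0.12 and 0.14), the fall in VPR sgHBB cells without VPR replicate 2 or WT replicate 1 (adjusted p = 0.43 and 0.16), and the fall in p300 sgHBB cells without p300 replicate 1 or WT replicate 1 (adjusted p = 0.10 and 0.094). The differences between fusions were firmer. TET3 was higher in VPRP sgHBB than in VPR sgHBB cells (log2 0.59 ± 0.10, adjusted p = 6.0e-06), and 1.51-fold higher than in p300 sgHBB cells (log2 0.59 ± 0.10, adjusted p = 1.5e-05), and both calls were kept in every one of 12 alternatives. VPRP sgHBB cells had less TET3 than VPRP non-target cells (log2 -0.29 ± 0.09, adjusted p = 0.016), which did not pass without VPRP sgHBB replicate 1 or without either VPRP non-target library (adjusted p = 0.12, 0.12 and 0.097).

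TDG, the glycosylase downstream of the TET enzymes, was close to WT in VPRP sgHBB cells and moved both ways elsewhere. It had 77.2 and 75.4 CPM in VPRP sgHBB libraries, 64.7 and 62.3 CPM in VPRP non-target libraries and 85.9 and 98.5 CPM in VPR sgHBB libraries. It had 85.6 and 81.5 CPM in p300 sgHBB libraries, 96.1 and 89.5 CPM in p300 D1399Y sgHBB libraries, and 74.3 and 77.6 CPM in WT libraries. VPRP non-target was the lowest group and overlapped no other. Against WT the log2 fold change was -0.26 ± 0.08 in VPRP non-target cells (adjusted p = 0.0062), 0.28 ± 0.08 in VPR sgHBB cells (adjusted p = 0.0089) and 0.29 ± 0.08 in p300 D1399Y sgHBB cells (adjusted p = 0.0052). In VPRP sgHBB cells it was 0.01, with a 95% interval of -0.16 to 0.17, and in p300 sgHBB cells it was 0.14 (adjusted p = 0.16).

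Several TDG calls depended on how libraries were scaled or on a single library. When libraries were scaled by total counts alone, the median gene of VPRP non-target against WT shifted by 0.14 on the log2 scale and the TDG difference shrank to -0.12 (adjusted p = 0.19). It also did not pass without WT replicate 2 (adjusted p = 0.052). The VPR call was lost without VPR replicate 2 or WT replicate 1 (adjusted p = 0.17 and 0.097), and the p300 D1399Y call without D1399Y replicate 1 or WT replicate 1 (adjusted p = 0.15 and 0.070). Between fusions, TDG was higher in VPRP sgHBB than in VPRP non-target cells (log2 0.26 ± 0.08, adjusted p = 0.012; lost without VPRP sgHBB replicate 1, 0.062, VPRP non-target replicate 2, 0.090, and with total counts, 0.051). It was lower in VPRP sgHBB than in VPR sgHBB cells (log2 -0.27 ± 0.08, adjusted p = 0.0044; lost without VPR replicate 2, 0.10, and with total counts, 0.060).

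**Figure D2:**
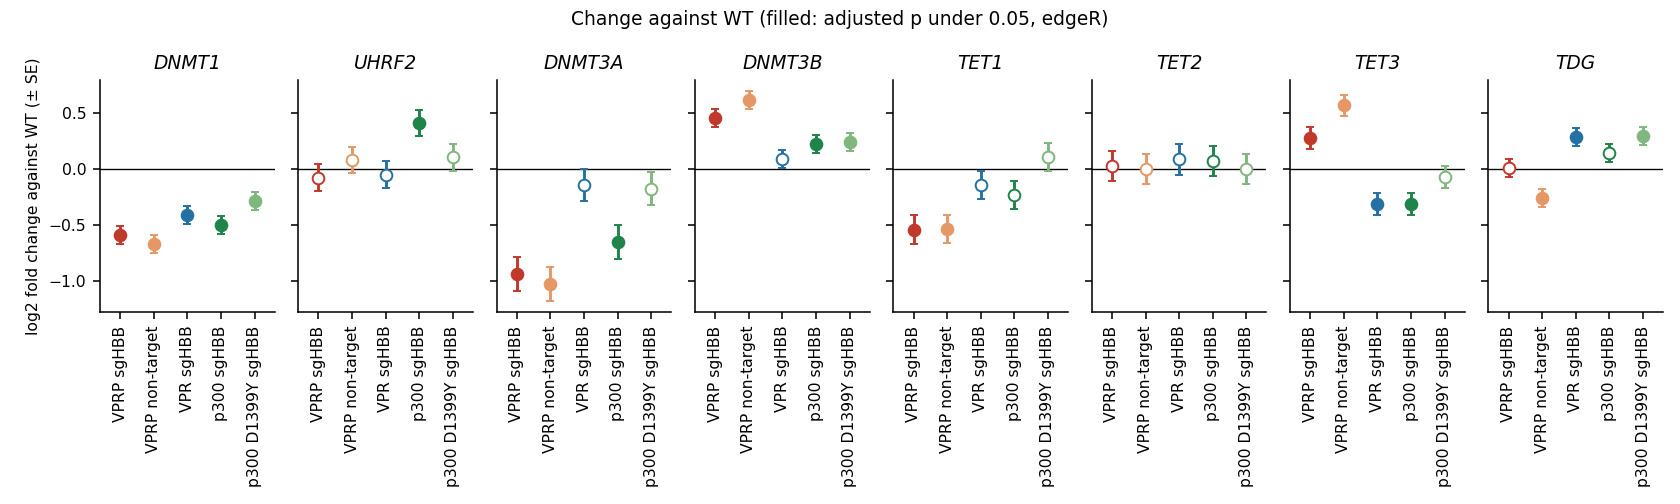
Log2 fold change against WT (y axis) of the 8 tested genes in the 5 fusion groups, from edgeR; bars are ± 1 SE and filled points passed an adjusted p of 0.05. DNMT1 lies below 0 in all 5 groups, DNMT3A lies near -1 in both VPRP groups, and TET3 lies above 0 in the VPRP groups and below 0 with VPR or p300 alone.

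The guides were compared within the VPRP fusion, where EP300 RNA differed too. In VPRP sgHBB against VPRP non-target cells 2 of 8 genes passed, TDG higher and TET3 lower, where 29.3% of all genes did (14.9% higher, 14.4% lower). Both calls were lost on leaving out single libraries, and that of TDG also with total counts alone, as given above. DNMT1, DNMT3A, TET1 and TET2 had log2 differences between -0.01 and 0.09, and DNMT3B had -0.16 (adjusted p = 0.11).

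In VPRP sgHBB against VPR sgHBB cells 5 of 8 genes passed, with DNMT3B and TET3 higher and DNMT3A, TET1 and TDG lower, where 49.8% of all genes passed (24.7% higher, 25.1% lower). In VPRP sgHBB against p300 sgHBB cells 3 of 8 passed, with DNMT3B and TET3 higher and UHRF2 lower, where 27.9% of all genes passed (14.3% higher, 13.7% lower). VPR sgHBB against p300 sgHBB cells had 2 of 8, DNMT3A higher and UHRF2 lower, where 34.3% of all genes passed (17% higher, 17.2% lower). p300 sgHBB against p300 D1399Y sgHBB cells, which differ in the D1399Y substitution and in EP300 RNA (195 and 194 CPM with p300 D1399Y), had 4 of 8, with UHRF2 higher and DNMT1, DNMT3A and TET1 lower, where 30.4% of all genes passed (15.4% higher, 15% lower). In this last comparison each of the 4 calls was lost on leaving out at least 1 library, and the count was 1 with DESeq2 and 2 with upper-quartile factors or total counts alone.

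The study combined VPR and p300 in a single fusion, so the change in VPRP sgHBB cells can be set against the sum of the changes with each of its components. The interaction is the log2 change of VPRP sgHBB minus those of VPR sgHBB and p300 sgHBB, each against WT. EP300 RNA averaged 375 CPM in VPRP sgHBB cells and 1124 CPM in p300 sgHBB cells. An interaction therefore cannot be told apart from a difference in the amount of the p300 component. In this test 3 of 8 genes passed, TET3 and DNMT1 above 0 and TDG below, where 15.2% of all genes did (6.68% higher, 8.53% lower). TET3 had an interaction of 0.90 ± 0.14 (adjusted p = 2.6e-05): it rose by 0.28 with VPRP where the 2 components fell by 0.31 and 0.32, so the combined fusion was 1.87-fold above the level that adding the components gives. This call was kept in every one of 16 alternatives, with values of 0.72 to 1.11.

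DNMT1 had an interaction of 0.32 ± 0.11 (adjusted p = 0.043). Its fall of 0.59 with VPRP was smaller than the sum of its falls of 0.41 with VPR and 0.50 with p300. This call was lost in 7 of 16 alternatives, among them the fits without VPRP replicate 2, VPR replicate 2, p300 replicate 1 and WT replicate 2 (adjusted p = 0.11, 0.24, 0.21 and 0.27). TDG had an interaction of -0.41 ± 0.11 (adjusted p = 0.011), being at 0.01 with VPRP while it stood at 0.28 with VPR and 0.14 with p300. The TDG call was lost without VPRP replicate 2, VPR replicate 2, p300 replicate 1 or WT replicate 1 (adjusted p = 0.058, 0.071, 0.065 and 0.059). For DNMT3A the interaction was -0.14 with a 95% interval of -0.57 to 0.29, and for DNMT3B 0.14 with an interval of -0.09 to 0.37, so a sum of the components lay within both intervals.

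**Figure D3:**
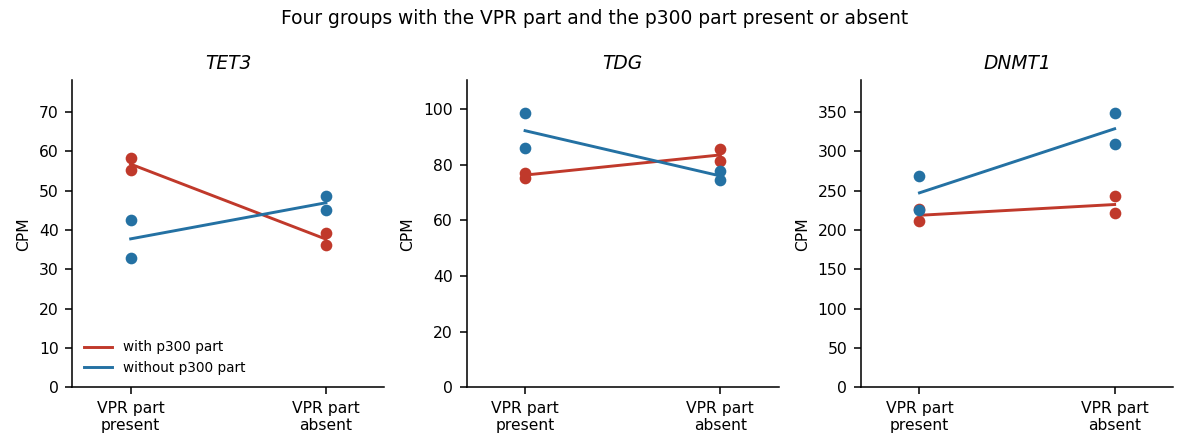
CPM of TET3, TDG and DNMT1 in the 4 groups that have or lack the VPR and the p300 components: points are libraries and lines join group means. With both components, VPRP sgHBB cells have the highest of the 4 TET3 means, 56.8 CPM, and the lines for TET3 cross, while WT, without either, has the highest DNMT1 mean, 329 CPM.

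The order of the groups differed between genes. For DNMT1 it ran upwards from VPRP non-target through VPRP sgHBB, p300 sgHBB, VPR sgHBB and p300 D1399Y sgHBB to WT, and among neighbours in that order p300 D1399Y sgHBB and WT alone differed past the threshold. For DNMT3A the upward order was VPRP non-target, VPRP sgHBB, p300 sgHBB, p300 D1399Y sgHBB, VPR sgHBB and WT, and the single step that passed lay between p300 sgHBB and p300 D1399Y sgHBB. For DNMT3B the downward order began with VPRP non-target and VPRP sgHBB and ended with WT, and the step from VPRP sgHBB to p300 D1399Y sgHBB passed (log2 0.21 ± 0.08, adjusted p = 0.024). DNMT1 and DNMT3A were thus lowest in the 2 VPRP groups, where DNMT3B was highest.

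The widest range of group means was 2.01-fold for DNMT3A, followed by 1.85-fold for TET3, 1.59-fold for DNMT1, 1.56-fold for TET1, 1.53-fold for DNMT3B, 1.46-fold for TDG, 1.40-fold for UHRF2 and 1.06-fold for TET2. The median over all genes was 1.75-fold, so 2 of the 8 genes lay above the median. Over the 12 libraries, which share 6 group means, log2 levels of DNMT1 and DNMT3A went together (Pearson r = 0.87), as did those of DNMT3B and TET3 (r = 0.81). DNMT3A and DNMT3B ran opposite (r = -0.79), and so did TET3 and TDG (r = -0.86). The genes most like DNMT3A among all genes were GIGYF1 (r = 0.98), HOXA6 (r = 0.97) and SGSM2 (r = 0.96). Among those most like TET3 were C15orf39 (r = 0.96) and POLR2A (r = 0.96), and those most like DNMT1 were HEATR5B, ZC3H7B and HIPK2 (r = 0.96 each). HOXA6, a homeobox gene, averaged 2.76 ± 0.40 CPM in VPRP sgHBB cells and 7.03 ± 1.67 CPM in WT cells (SD, n = 2 each). POLR2A, the largest subunit of RNA polymerase II, averaged 539 ± 20.7 CPM in VPRP sgHBB cells and 388 ± 9.58 CPM in WT cells.

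DNMT1 is known as a gene of S phase, so genes of G1/S and DNA replication were read beside it. The summed level of 20 such genes was 3673 to 3894 CPM in VPRP sgHBB libraries, 3318 to 3342 CPM in VPRP non-target libraries, and 4087 to 4204 CPM in p300 sgHBB libraries. It was 4988 to 5009 CPM in VPR sgHBB libraries and 4873 to 4936 CPM in p300 D1399Y sgHBB libraries, against 4901 to 5067 CPM in WT libraries. VPR sgHBB and p300 D1399Y sgHBB libraries overlapped WT in this sum, and their DNMT1 was lower than in WT. The sum weighs the most abundant genes most. In VPRP sgHBB against WT 12 of the 20 genes fell and 3 rose (median log2 -0.25, against 0.04 over all genes), where 28% of all genes fell and 31.1% rose. In VPRP non-target against WT 15 fell and 1 rose, where 28.5% of all genes fell and 31.2% rose, and in p300 sgHBB against WT 10 fell and 2 rose, where 21.6% fell and 24.5% rose. In VPRP sgHBB against WT the largest falls included CDT1, which licenses replication origins (log2 -1.63 ± 0.08). They also included MCM7, a subunit of the replicative helicase (log2 -0.80 ± 0.07), while CCNE2, a G1/S cyclin, rose (log2 0.83 ± 0.19). CDT1 and CCNE2 were also among the largest called changes of the list in VPR sgHBB and in p300 D1399Y sgHBB against WT. VPR sgHBB against WT had 8 higher and 1 lower, where 13.8% of all genes were higher and 11.5% lower. p300 D1399Y sgHBB against WT had 5 higher and 2 lower, near the 30.2% of all genes called there. Whether the replication genes have a part in the DNMT1 result was not tested.

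The 15 G2/M genes had 3 higher and 4 lower in VPRP sgHBB against WT and 2 higher and 4 lower in VPRP non-target against WT, where 59.1% and 59.7% of all genes were called. They had 12 higher in VPR sgHBB, 9 higher in p300 sgHBB and 6 higher in p300 D1399Y sgHBB against WT, with 0 lower in each, where 13.8%, 24.5% and 15.7% of all genes were higher. MKI67, a marker of cycling cells, was at 87.6 and 114 CPM in VPRP sgHBB libraries and 76.0 and 98.0 CPM in WT libraries, which overlapped. CDKN1A, the inhibitor p21, rose in all 5 fusion groups against WT. It stood at 246 and 238 CPM in VPRP sgHBB, 101 and 95.3 CPM in VPRP non-target, 111 and 108 CPM in VPR sgHBB, 122 and 134 CPM in p300 sgHBB, 205 and 196 CPM in p300 D1399Y sgHBB, and 44.8 and 43.0 CPM in WT libraries.

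**Figure D4:**
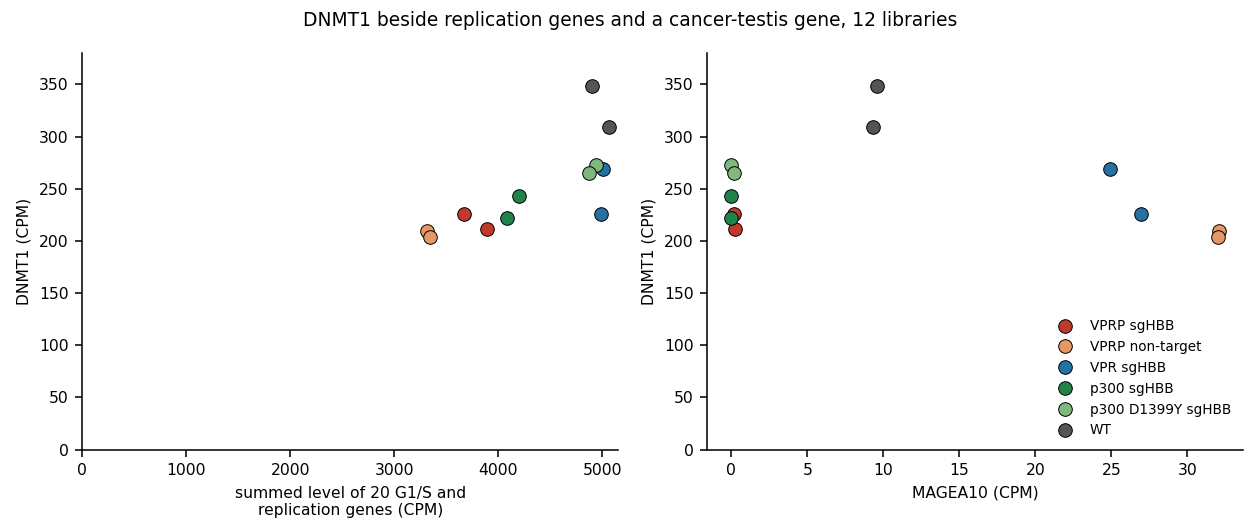
DNMT1 in CPM (y axis) in the 12 libraries against the summed CPM of 20 genes of G1/S and DNA replication (left) and against the CPM of MAGEA10, a germline gene (right), coloured by group. VPR sgHBB and p300 D1399Y sgHBB libraries stand at 4873 to 5009 CPM of replication genes, beside 4901 to 5067 CPM in WT, with lower DNMT1; the 6 libraries near 0 for MAGEA10 have 211 to 273 CPM of DNMT1.

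Of 15 tested partners that target or assist the methyltransferases, 8 fell and 1 rose in VPRP sgHBB against WT (median log2 -0.53, against 0.04 over all genes), where 28% of all genes fell and 31.1% rose. The total of 9 called was near the 59.1% of all genes. The 3 largest changes were in LIG1, the replication ligase (log2 -0.93 ± 0.09), EHMT2, the G9a histone methyltransferase (log2 -0.88 ± 0.08), and SETDB1, another histone H3K9 methyltransferase (log2 -0.87 ± 0.10). In VPRP non-target against WT 10 fell and 0 rose, where 28.5% of all genes fell and 31.2% rose. With p300 8 fell and 2 rose, where 21.6% of all genes fell and 24.5% rose. With VPR and with p300 D1399Y 6 fell and 3 rose, where 11.5% and 14.5% of all genes fell and 13.8% and 15.7% rose. EHMT2 stood at 85.7 and 90.2 CPM in VPRP sgHBB, 106 and 101 CPM in VPRP non-target, 121 and 97.5 CPM in VPR sgHBB, 98.5 and 102 CPM in p300 sgHBB, 109 and 110 CPM in p300 D1399Y sgHBB, and 157 and 166 CPM in WT libraries, so it was lower than WT with either guide. HELLS, a chromatin remodeller needed for methylation, was 1 of the 3 that rose with p300 D1399Y (log2 0.39 ± 0.08, adjusted p = 0.00034). This level was not particular to p300 D1399Y. HELLS had 81.3 to 83.3 CPM there, 78.0 to 80.7 CPM with VPR and 61.8 to 63.8 CPM in WT libraries.

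Of 19 genes around TET and TDG, 8 were higher and 8 lower in VPRP sgHBB against WT (median log2 -0.02), where 31.1% of all genes were higher and 28% lower. The 3 largest changes were in the stress-induced GADD45 genes, which have been linked to active demethylation. GADD45G stood at 6.46 and 5.69 CPM in VPRP sgHBB libraries, 14.8 and 17.2 CPM in VPRP non-target libraries, and 0 and 0.13 CPM in WT libraries. GADD45B rose by a log2 of 2.74 ± 0.14 in VPRP sgHBB and 3.92 ± 0.13 in VPRP non-target cells against WT, and GADD45A by 1.54 ± 0.08 and 1.87 ± 0.08. All 3 were thus highest in VPRP non-target cells. GADD45B also rose with p300 (log2 2.48 ± 0.14) and GADD45A with p300 D1399Y (log2 0.74 ± 0.08). GADD45A was higher still with p300, at 89.6 to 91.1 CPM against 65.6 to 71.9 CPM with p300 D1399Y. It had 51.9 to 54.4 CPM with VPR and 41.0 to 41.3 CPM in WT libraries. GADD45G also rose with p300, to 0.98 to 2.41 CPM. Of 13 readers of CpG, 6 fell and 1 rose in VPRP sgHBB against WT, a total near the 59.1% of all genes called. Those that fell include KMT2A, whose CXXC domain binds unmethylated CpG (log2 -0.83 ± 0.09), and MBD3, a subunit of the NuRD complex (log2 -0.67 ± 0.08). ZBTB38, which binds methylated CpG, rose with p300 D1399Y (log2 1.14 ± 0.12). It also passed against WT in VPR sgHBB, p300 sgHBB and VPRP non-target cells, so a change in it was not particular to p300 D1399Y. Its level was lower with p300 than with p300 D1399Y. Of 16 genes of methyl donor and one-carbon metabolism, 10 were lower and 2 higher in VPRP sgHBB against WT (median log2 -0.20), where 28% of all genes were lower and 31.1% higher. CBS, which draws homocysteine out of the methionine cycle, fell by 1.33 on the log2 scale, and MAT2A, which makes S-adenosylmethionine, fell by 1.00.

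The genes that were near silent in VPRP sgHBB, p300 sgHBB and p300 D1399Y sgHBB cells include MAGEA10, a germline gene of the X chromosome. MAGEA10 had 0.26 and 0.17 CPM in VPRP sgHBB libraries, 0 and 0 CPM in p300 sgHBB libraries, and 0 and 0.14 CPM in p300 D1399Y sgHBB libraries. It had 32.1 and 32.0 CPM in VPRP non-target libraries, 24.9 and 26.96 CPM in VPR sgHBB libraries, and 9.34 and 9.57 CPM in WT libraries. Of 14 germline genes whose promoters are methylated in somatic cells, 4 passed the filter, some of them only through the groups in which they were high, so no count of calls is given. STK31, another germline gene, had 0.33 and 0.55 CPM in VPRP sgHBB libraries, 0 counts in both p300 sgHBB and both p300 D1399Y sgHBB libraries, and 1.68 and 1.81 CPM in WT libraries. TEX14 did not follow this division, with 2.94 and 2.98 CPM in VPRP sgHBB libraries and 0.94 and 0.58 CPM in WT libraries. Levels of STK31 and TEX14 in the remaining groups are not given here, so neither gene shows the division in full.

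No writer or eraser of methylation followed that division of the groups. For each of the 9 genes with a row, the 6 libraries of the 3 groups near 0 for MAGEA10 overlapped the 6 of the other 3 groups. The share of all genes that separate along this division was not counted, so the overlap describes these 9 genes only. DNMT1 had a lowest, median and highest value of 211, 234 and 273 CPM in the groups near 0, against 204, 247 and 349 CPM in the others. DNMT3A had 9.85, 14.6 and 20.3 CPM against 10.1, 19.3 and 26.1 CPM, and DNMT3B had 70.7, 73.2 and 88.5 CPM against 61.3, 65.6 and 94.5 CPM. The highest and lowest group means of DNMT1, DNMT3A and DNMT3B were those of VPRP non-target and WT, which are on the same side of the division. Methylation itself was not measured in these libraries, so RNA levels are all that the comparison covers.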

How the data were processed

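The deposited table holds whole-number read counts per gene, not normalized, for 12 RNA libraries. Per the submitters' processing notes, STAR 2.5, HTSeq 0.6.1, DESeq2 1.24.0, BWA, deepTools and build hg19 were used, with no role or order given; the sources used here give no annotation release or strand setting. The 10 ChIP-seq samples of H3K27ac were not analysed here. Symbols from a gene name table matched 33626 of 48162 IDs.

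The analysis used edgeR 4.0.16 and limma 3.58.1 under R 4.3.3. filterByExpr by group (minimum count 10, minimum total 15) left 16694 genes, scaled by TMM. A quasi-likelihood model held a mean for each of the 6 groups over the 12 libraries; p-values of its 11 contrasts were adjusted by Benjamini-Hochberg over all genes, with a threshold of 0.05. The SE is the log2 fold change over the square root of F. CPM uses TMM-scaled library sizes, with SD over 2 libraries. A count of 0 allows up to 3 counts. With 2 libraries a group, p-values measure only the spread between these samples.

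The genes and the context lists (141 genes, 139 with a row) were chosen with earlier results of these data known. Named list genes are up to 3 called genes with the largest change. Likeness is Pearson's r of log2 CPM (prior count 2). The 3 genes most like a member are named, except 1 that is not reported here. The alternatives run were total counts alone, upper-quartile factors, RLE factors, DESeq2 1.42.0, no filter, 1 CPM in at least 2 libraries, the compared groups alone, a replicate block and leaving out each library. The steps were tested on simulated data. Figures used matplotlib 3.10.9 in Python 3.11.15.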

Additional observations from a re-analysis of the deposited data

Results flagged for a closer look

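For 3 of the 8 genes the change in VPRP sgHBB cells differed from the sum of the changes in VPR sgHBB and p300 sgHBB cells, by edgeR's interaction test with Benjamini-Hochberg adjustment. The interaction on the log2 scale was 0.90 for TET3 (adjusted p = 2.6e-05), 0.32 for DNMT1 (adjusted p = 0.043) and -0.41 for TDG (adjusted p = 0.011). The TET3 call was kept in all 16 alternatives run for it. EP300 RNA was lower in VPRP sgHBB than in p300 sgHBB cells, so the amount of the p300 component cannot be told apart from its combination with VPR. With 2 libraries in each group, no single library could be assessed as standing apart within its group.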

How the results depend on the processing

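Of 41 member values that passed, 17 kept their call under every alternative run for them and 24 lost it under at least 1, and none changed sign. The 77 losses comprised 56 on leaving out 1 library, 8 of them without WT replicate 1 and 7 without WT replicate 2, and 21 under other settings. Where 1 of 2 libraries was left out, the remaining one is assumed to vary like the other groups. In p300 sgHBB against p300 D1399Y sgHBB, 4 members passed, against 2 with upper-quartile factors, 2 with total counts alone and 1 with DESeq2. In VPRP sgHBB against VPR sgHBB, 5 passed, against 3 with total counts alone.

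Leaving out 1 library at a time, the number of members called was 4 to 5 in VPRP sgHBB against WT, 5 to 6 in VPRP non-target against WT, 1 to 4 in VPR sgHBB against WT, 2 to 4 in p300 sgHBB against WT and 1 to 2 in p300 D1399Y sgHBB against WT. It was 0 to 2 in VPRP sgHBB against VPRP non-target, 4 to 5 against VPR sgHBB, 2 to 3 against p300 sgHBB, 1 to 3 in VPR sgHBB against p300 sgHBB, 0 to 2 in p300 sgHBB against p300 D1399Y sgHBB, and 1 to 4 for the interaction. Genes called over all context gene lists numbered 53 in VPR sgHBB against WT (32 to 58 on leaving out 1 library) and 54 in p300 D1399Y sgHBB against WT (35 to 39). Over all genes tested, 25.3% and 30.2% were called in these comparisons. The pooled lists include the germline genes, some of which passed the filter only through the groups in which they were high. The number of list genes tested is not given here, so the pooled counts are not compared with these shares.

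Replicate numbers did not pair the libraries: over 15 pairs of groups the deviations of same-numbered libraries correlated from -0.04 to 0.07. With the replicate number as a block, 3 members passed in p300 sgHBB against p300 D1399Y sgHBB and 2 for the interaction, where DNMT1 dropped out of both (adjusted p = 0.051 and 0.061), and no other member count changed.

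Signs changed only for values that had not passed. TET2 in VPRP non-target against WT, -0.002 on the log2 scale, was 0.0048 with RLE, 0.046 with upper-quartile factors, 0.13 with total counts alone, 0.015 with the stricter filter and 0.0038 with DESeq2. TET2 in p300 D1399Y sgHBB against WT, -0.003, was 0.010 with upper-quartile factors, 0.014 with total counts alone and 0.0010 with only the groups compared. TDG in VPRP sgHBB against WT, 0.01, was -0.012 without the filter. On leaving out 1 library, values against WT on either side of 0 ran as follows. TET2 ran from -0.026 to 0.072 in VPRP sgHBB, from -0.19 to 0.10 in VPRP non-target, from -0.10 to 0.25 in VPR sgHBB, from -0.014 to 0.15 in p300 sgHBB and from -0.086 to 0.047 in p300 D1399Y sgHBB cells. UHRF2 ran from -0.23 to 0.081 in VPRP sgHBB, from -0.083 to 0.23 in VPRP non-target, from -0.20 to 0.11 in VPR sgHBB and from -0.047 to 0.27 in p300 D1399Y sgHBB cells. TDG ran from -0.031 to 0.032 in VPRP sgHBB, and TET1 from -0.40 to 0.061 in VPR sgHBB cells. DNMT3A ran from -0.33 to 0.071 in VPR sgHBB and from -0.36 to 0.039 in p300 D1399Y sgHBB cells. The cause of these changes was not tested. With total counts alone, the share of all called genes that were higher in VPRP non-target against WT was 64.2%, against 52.2% with TMM factors.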
